A study of Mus musculus with 4 samples.

Results

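The 10 genes described here encode the machinery that loads peptides onto major histocompatibility complex (MHC) class I molecules: the heavy chains H2-K1, H2-D1 and H2-Q7, the light chain B2m, the peptide transporter subunits Tap1 and Tap2, the loading factor Tapbp, the immunoproteasome subunits Psmb8 and Psmb9, and the transactivator Nlrc5. They were chosen by name, and all 10 were found among the 32285 genes of the deposited table. They were followed in 4108 single CD45+ leukocytes, which the authors had placed in 16 named clusters, sorted from tumors of the melanoma line 20967. The line came from a C57BL/6 background with the alleles Nras+LSL-G12D and Tyr::CreERT2+/o, and the hosts of all tumors were wild type C57BL/6 mice. The comparison was between 5 control tumors and 5 tumors treated with clobetasol propionate, a strong glucocorticoid (GC). All tumors thus came from 1 line, and the age of the hosts was not given in the sources used here.

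The tumor was the replicate, since its cells had been stained with a hashtag of their own before pooling. Tumors are numbered 1 to 5 in each group by hashtag, which is only a name. The 5 control tumors were run in one channel loaded with 17100 cells and the 5 GC tumors in another loaded with 3500, so treatment and channel cannot be told apart. The control tumors gave 3803 cells, between 347 and 1250 per tumor, and the GC tumors 305 cells, between 18 and 111 per tumor. The channels shared 0 cell barcodes. The median cell held 7440 unique molecular identifiers (UMIs, each 1 captured RNA molecule) in control and 9163 in GC tumors. GC cells were also deeper within classes, with medians of 17855 against 12883 UMIs in tumor-associated macrophages (TAMs) and 5881.5 against 4220.5 in neutrophils. The 10 genes together took 0.808% of all UMIs in control and 0.720% in GC tumors. A level is given below as UMIs per 10000 UMIs of a cell, averaged over the cells of 1 tumor. As a check of the labels, the glucocorticoid target Fkbp5 rose over all cells from 0.536 ± 0.0938 in control to 3.67 ± 1.23 in GC tumors (mean ± SD, n = 5 and 5; limma adjusted p = 0.000173).

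MHC class I molecules display fragments of the proteins made inside a cell to CD8 T cells. The proteasome cuts proteins into peptides, the TAP transporter carries the peptides into the endoplasmic reticulum, and tapasin holds empty class I molecules at the transporter until a peptide fits. Interferon-γ induces nearly every step, in part through Irf1, and Nlrc5 drives class I promoters, above all in lymphocytes. Almost all leukocytes carry class I on their surface.

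In the mouse build GRCm38, 8 of the 10 genes lie on chromosome 17 within 1.53 Mb, from position 33915899 (the start of Tapbp) to position 35443773 (the end of H2-Q7). B2m lies on chromosome 2 from 122147686 to 122153083, and Nlrc5 on chromosome 8 from 94434356 to 94527272. The Ensembl models of Tap1 and Psmb9 overlap at their starts on opposite strands, and their RefSeq start sites are 225 bases apart and point away from each other. B2m overlaps Patl2 on the opposite strand and Tapbp overlaps Zbtb22 on the same strand, and whether counting used the strand was not given in the sources used here. The heavy chains are near-identical copies, so the last 500 bases of their transcripts were cut into 90-base windows and sought in all other genes. Of these windows 0.151% of H2-K1 and 4.735% of H2-Q7 (the latter in H2-Q5) also occurred elsewhere, and 0% of H2-D1 and the other 7 genes. Reads further upstream, or in introns, which the authors also counted, lie outside that check.

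The promoters of the heavy chains and of B2m are shown because class I genes are switched on together through shared elements in them. RefSeq start sites in GRCm38.p6 gave a promoter, taken as 250 bases before to 50 after the start, for 8 of the 10 genes (not Tap2 or Nlrc5). Capitals mark matches on either strand to an NF-κB type motif (GGG, 3 free bases, T, 1 free base, CC) and, in B2m, also to the core of the interferon response element (GAAA, 2 free bases, GAAA).
H2-K1 (chr17:34000434-34000463, minus strand): gggctGGGGATTCCCCatctccacagtttc
H2-D1 (chr17:35262918-35262947, plus strand): gggctGGGGATTCCCCatctcctcagtttc
H2-Q7 (chr17:35439017-35439046, plus strand): tggctGGGGATTCCCatctccccagtttca
B2m (chr2:122147545-122147574, plus strand): catGAAACTGAAAatgGGAAAGTCCCtttg
The stretches of H2-K1 and H2-D1 differed at 1 of 30 bases, and in both the capitals join overlapping matches on the 2 strands. The NF-κB type motif was present in 6 of the 8 promoters (H2-K1, H2-D1, H2-Q7, B2m, Tap1 and Psmb9) and in 17.4% of all 32851 promoters. The core TGACG of the X2 box was present in the promoters of the same 6 genes and in 20.8% of all promoters, and the longer TGACGNNA, which contains it, in Tap1 and Psmb9 (6.61% of all). The promoters of Tap1 and Psmb9 overlap, and their matches to these 3 motifs lie on the same bases, so they are 1 set of sites counted for both genes. The interferon response core was found in B2m (3.44% of all). Of the motifs of the glucocorticoid receptor, the short element AGAACA was present in B2m and Tap1 (19.0% of all promoters) and the palindrome (G, 1 free base, ACA, 3 free bases, TGT, 1 free base, C) in 0 of the 8 (0.475%). These are matches of letters in the windows searched, not measured binding sites.

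The first question was where among the leukocytes of control tumors each gene was highest. Levels across clusters are a description with no test, because the clusters were formed from the same cells and genes. Clusters were ordered by the mean over control tumors with at least 10 cells of a cluster, which left 13 clusters with 2 or more tumors, and a step between neighbors was called held when it had the same direction in every tumor with both clusters. The marker lists of T cells, CD8, CD4 and regulatory T cells (Tregs), NK cells, γδT cells, neutrophils and eosinophils each summed highest in a cluster of that name. The B cell list, with no cluster of its own, was highest in cluster CD4 (1.03, where the CD4 list summed to 2.50). The NK list came second there (1.63, beside 17.9 in cluster NK), so cluster CD4 may be mixed. The list of TAM markers was higher in cluster Monocytes 3 (64.3 UMIs per 10000) than in cluster TAM (58.6), so the label Monocytes 3 goes partly against its markers.

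Among the chains of the class I molecule, H2-K1, the classical heavy chain K, was highest in eosinophils at 46.7 ± 4.45 UMIs per 10000 (SD, n = 5). Tregs followed at 31.7 ± 1.12 (n = 5) and clusters CD8 3, CD8 2 and CD8 1 at 27.3, 26.0 and 23.4. The lowest H2-K1 level was in neutrophils at 7.64 ± 1.19 (n = 5). Each step from eosinophils down through Tregs and the CD8 clusters to NK cells held, as did the last step from Monocytes 2 to neutrophils, while the steps in between, through DC 1, TAM, CD4, Monocytes 1 and DC 2, did not. Eosinophils were the shallowest cluster, with a median of 873.5 UMIs per cell, so each of their levels is a share of few molecules per cell. Counted per cell in control, eosinophils held 4.29 UMIs of H2-K1, beside 20.4 in Tregs, 28.3 in DC 1 and 3.04 in neutrophils. Of H2-D1 they held 1.32 UMIs per cell, beside 8.73 in Tregs and 4.67 in neutrophils. High levels in eosinophils are thus not high counts per cell.

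H2-D1, the other classical heavy chain, was much more even, from 14.1 ± 1.18 UMIs per 10000 in eosinophils to 7.55 ± 0.310 in cluster CD4 (n = 5 each). Only 2 of its 12 steps held, CD8 3 over DC 1 and DC 2 over CD4. Neutrophils, the lowest cluster for H2-K1, were near the middle for H2-D1 at 11.2 ± 1.01 (n = 5). H2-Q7, a class Ib heavy chain of the Qa-2 type, had the widest range of the heavy chains, 11.1-fold. It was highest in Tregs at 8.02 ± 0.941 and lowest in Monocytes 2 at 0.726 ± 0.131 (n = 5 each). For H2-Q7 the lymphoid clusters, DC 1 and eosinophils lay between 4.28 and 8.02, and TAM, DC 2, Monocytes 1, Monocytes 2 and neutrophils between 0.726 and 2.63. B2m, the light chain that every class I heavy chain needs, ranged 1.87-fold, from 39.6 ± 6.48 in CD8 3 (n = 3) to 21.2 ± 4.53 in neutrophils (n = 5), and 1 of its 12 steps held.

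The transporter and tapasin were highest in cluster CD8 3. Tap1 reached 2.93 ± 0.661 UMIs per 10000 there (n = 3), against 0.622 ± 0.373 in neutrophils (n = 5). Tap2, its partner in the transporter, reached 2.74 ± 0.339 in CD8 3 (n = 3) and was lowest in Monocytes 2 at 0.475 ± 0.0989 (n = 5). Tapbp, which encodes tapasin, reached 5.84 ± 1.21 in CD8 3 (n = 3) and was lowest in cluster CD4 at 2.03 ± 0.286 (n = 5). The step from CD8 3 to the next cluster held in all 3 tumors for Tap1 and Tap2, but not for Tapbp, where eosinophils came next at 4.92 ± 1.09 (n = 5). Within the CD8 T cells, the Tapbp means of CD8 1 and CD8 2 were 2.15 and 2.37.

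The immunoproteasome subunits were highest in the dendritic cluster DC 1, the cluster with the highest sum of mature dendritic cell markers. Psmb8 (LMP7) was at 4.27 ± 0.566 UMIs per 10000 in DC 1 (n = 4), followed by 3.24 ± 0.490 in CD8 3 (n = 3), and that step held in all 3 tumors with both clusters. Psmb9 (LMP2) was at 2.17 ± 0.691 in DC 1 (n = 4), and 0 of its 12 steps held. Both were lowest in neutrophils, at 0.563 ± 0.174 for Psmb8 and 0.562 ± 0.226 for Psmb9 (n = 5). Nlrc5, the transactivator, had the widest range of the 10 genes, 11.4-fold. CD8 3 held 6.39 ± 1.03 UMIs per 10000 of Nlrc5 (n = 3), and DC 1, CD8 1, Tregs and CD4 came next at 3.13, 3.11, 3.01 and 2.99. TAMs were at 1.01 ± 0.0870 and neutrophils at 0.562 ± 0.347 (n = 5 each). In all, 5 of the 10 genes (B2m, Tap1, Tap2, Tapbp and Nlrc5) were highest in CD8 3 and 6 were lowest in neutrophils. The step from CD8 3 to the next cluster held for Tap1, Tap2 and Nlrc5 and not for B2m and Tapbp. The last step to neutrophils held for H2-K1 and not for B2m, Tap1, Psmb8, Psmb9 and Nlrc5. How many of all genes had these extremes was not counted.

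**Figure D1:**
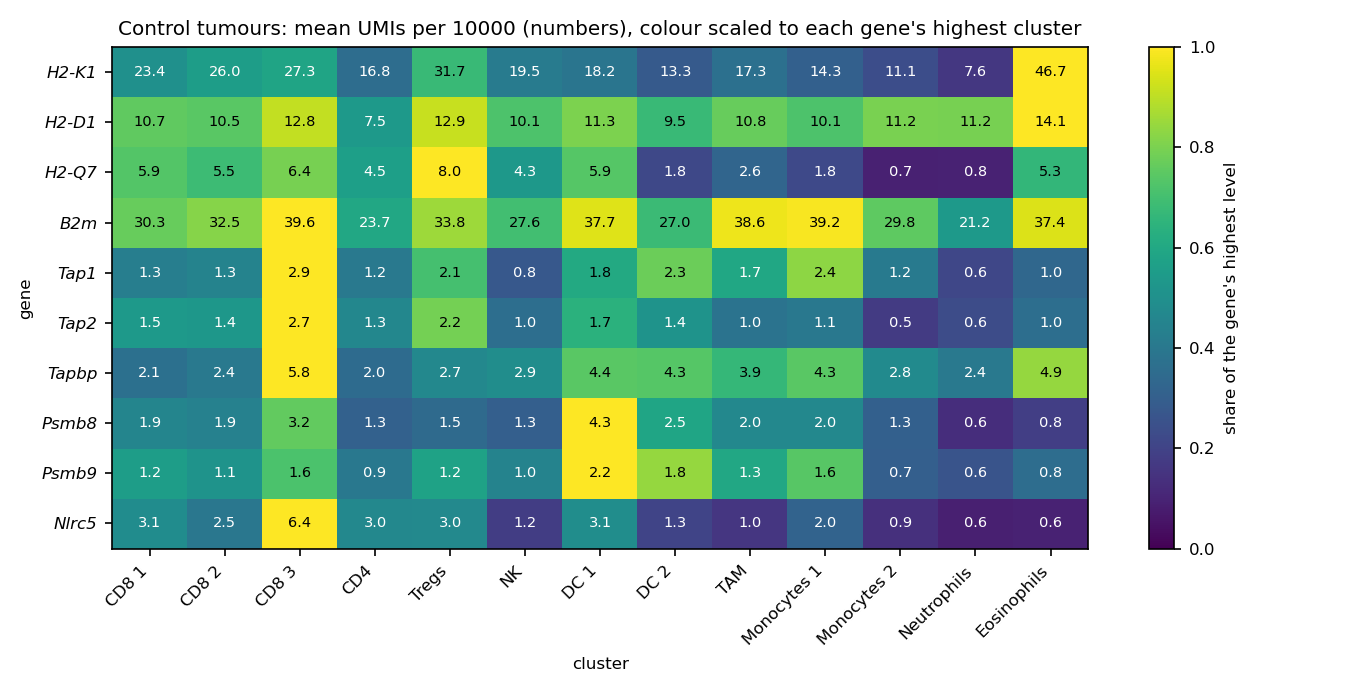
Heat map of the mean UMIs per 10000 of each gene (rows) in 13 clusters (columns) of control tumors. The printed number is the level and the color is that level as a share of the highest cluster of the gene. B2m, Tap1, Tap2, Tapbp and Nlrc5 are highest in CD8 3, Psmb8 and Psmb9 in DC 1, H2-Q7 in Tregs, and H2-K1 and H2-D1 in eosinophils, at 46.7 and 14.1.

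Over the 16 cluster profiles, which share channel, tumors and differences in depth, the 45 pairs of the 10 genes had a median Pearson correlation of 0.50 on the log scale. The closest pair was Psmb8 and Psmb9 (0.91), followed by H2-K1 and H2-Q7 (0.84), Tap2 and H2-Q7 (0.80) and Tap2 and Nlrc5 (0.79). H2-D1 was least like the rest, at 0.32 with the mean of the other 9, and its correlation with Nlrc5 was -0.09. Without the clusters of neutrophils and eosinophils, H2-D1 and Nlrc5 were at 0.28 and the median over all pairs was 0.43. Of 2259 genes with a mean of at least 1 UMI per 10000, the 5 outside the class I lists whose profile was most like the mean of the 10 were Itm2c (0.72), Coro2a (0.72), Phip (0.72), Ncoa7 (0.70) and Ndufv3 (0.69). These likenesses are descriptions with no test.

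The second question was which of these genes changed under GC treatment. Levels of tumors with at least 10 cells of a class were compared on the log2(level + 0.1) scale with limma, for genes with a mean of at least 0.2, with Benjamini-Hochberg adjustment over all genes tested and a threshold of 0.05. GC tumor 1, with 18 cells, stood apart. Its level over all cells was 31.2 UMIs per 10000 for H2-K1 against 16.8 to 21.8 in the other 4 GC tumors, 4.03 against 1.36 to 2.24 for Tapbp, and 1.57 against 0.706 to 0.974 for Tap2. Eosinophils were 22.2% of its cells, the largest share in any of the 10 tumors, and the part of that share in its levels was not tested.

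Over all CD45+ cells, Tap1 was the only one of the 10 genes that passed the threshold, and it was lower in GC tumors. The control tumors had 1.64, 1.57, 1.71, 1.49 and 1.37 UMIs per 10000 of Tap1, and the GC tumors 0.882, 0.981, 1.07, 0.916 and 1.36. Every GC tumor lay below every control tumor (10.9% of all genes tested did not overlap), although GC tumor 5 nearly reached control tumor 5. The log2 change was -0.55 ± 0.14 (SE; adjusted p = 0.0433), from 1.55 ± 0.132 to 1.04 ± 0.190 (SD, n = 5 each). Of all 6471 genes 6.15% passed, 3.82% lower and 2.33% higher (151 higher and 247 lower; 222 higher and 162 lower with median-of-ratios scaling), so 1 of 10 is near the background. The call was lost without any 1 of the 5 control tumors or without GC tumor 3 or 4 (adjusted p up to 0.127), in edgeR (0.0898; 6.51% of genes passed) and with the share of lymphocytes, granulocytes and mononuclear phagocytes set equal in every tumor (log2 change -0.45, 0.0503). Neutrophils, the cluster with the least Tap1, made up 3.02 to 8.36% of cells in control and 8.86 to 25.3% in GC tumors. Without neutrophils and eosinophils Tap1 passed (-0.42, 0.0321). The part of cell makeup in the fall of Tap1 was not tested.

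The other 9 genes did not pass over all cells. B2m was at 34.6, 32.1, 34.7, 34.6 and 30.6 UMIs per 10000 in control and 31.5, 25.0, 27.3, 26.1 and 29.6 in GC tumors (log2 change -0.26 ± 0.09, adjusted p = 0.104), and did pass with equal shares (-0.23, 0.0421). Tapbp had a log2 change of -0.60 ± 0.23 and Tap2 of -0.47 ± 0.20 (adjusted p = 0.151 and 0.183). Without GC tumor 1, where 9.41% of all genes passed, the calls were 4 of 10: Tap1, Tapbp (-0.82, 0.00950), Tap2 (-0.65, 0.00987) and B2m (-0.30, 0.0484). GC tumor 1 was set apart above by its high Tapbp and Tap2, so their calls without it are no separate support. DESeq2 called 3 of 10, Tap1, Tap2 and Tapbp, with 8.81% of genes passing. The heavy chains had log2 changes of -0.17 ± 0.15 for H2-K1, 0.04 ± 0.10 for H2-D1 and -0.19 ± 0.15 for H2-Q7. Those of Nlrc5, Psmb8 and Psmb9 were 0.06 ± 0.16, 0.18 ± 0.18 and -0.37 ± 0.17. The median over the 10 genes was -0.23, beside -0.11 over all genes tested.

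**Figure D2:**
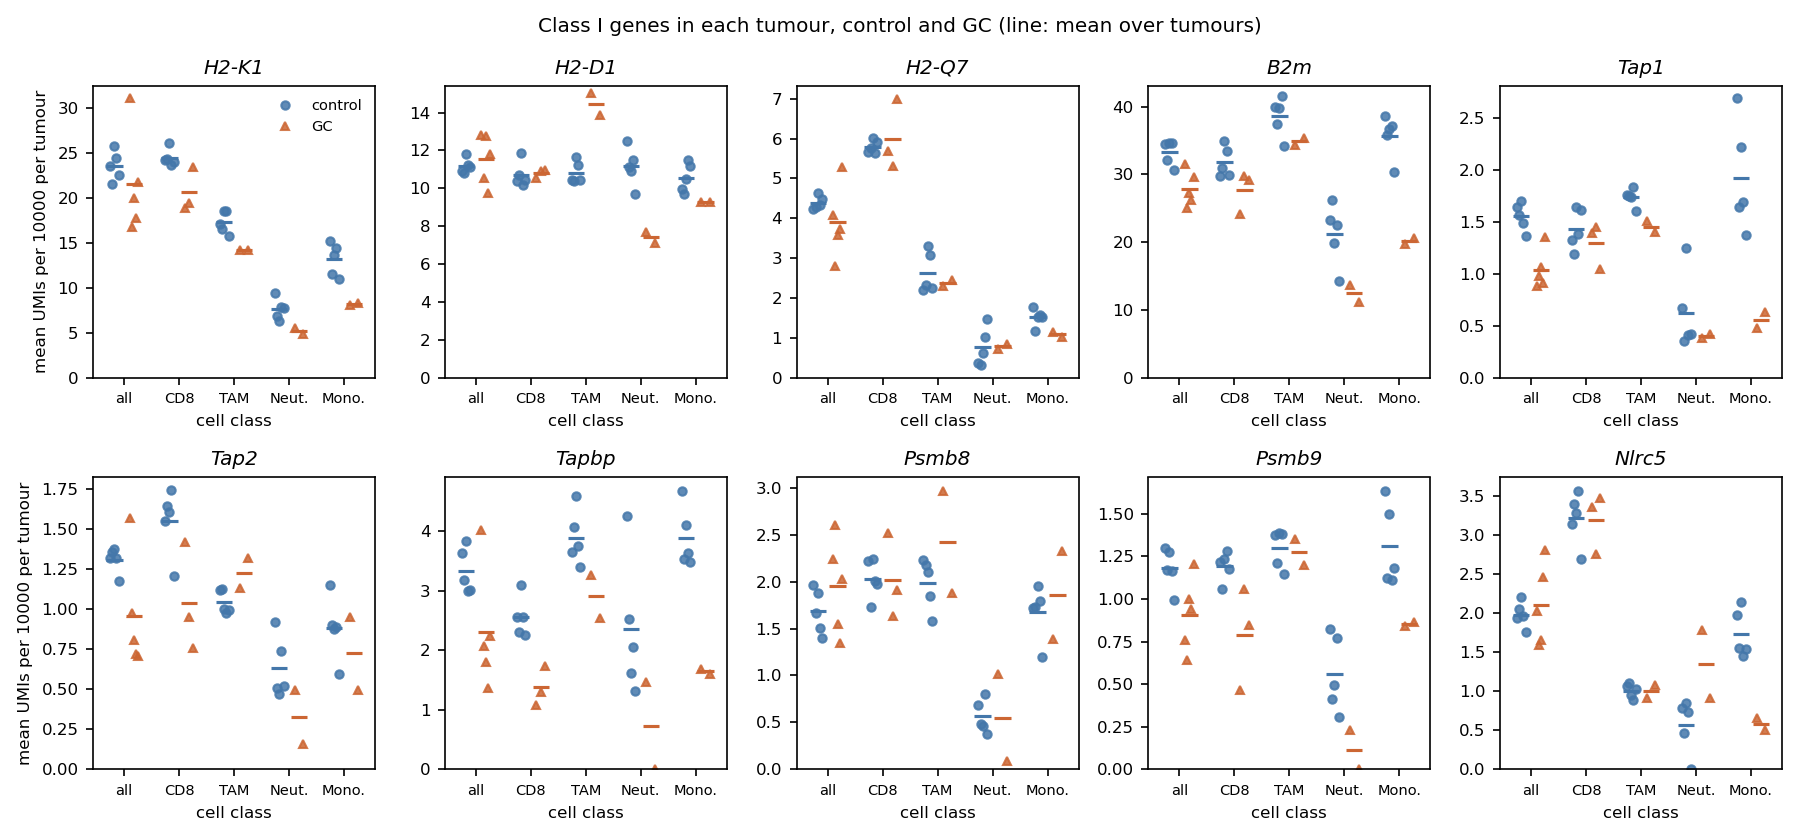
Mean UMIs per 10000 in each tumor (points; line, mean over tumors) for the 10 genes in 5 cell classes, control (circles) and GC (triangles). Every GC tumor lies below every control tumor for Tap1 over all cells and for Tapbp in CD8 T cells, and both GC tumors lie above the 5 control tumors for H2-D1 in TAMs.

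In CD8 T cells (clusters CD8 1 to CD8 3, 5 control and 3 GC tumors), tapasin mRNA fell. Tapbp was at 2.56, 2.30, 3.10, 2.56 and 2.25 UMIs per 10000 in control tumors and at 1.08, 1.30 and 1.74 in GC tumors 2, 3 and 5. The groups did not overlap. The log2 change was -0.86 ± 0.17 (SE; adjusted p = 0.0133), from 2.55 ± 0.337 to 1.38 ± 0.336 (SD, n = 5 and 3). Tapbp was 1 of 10, where 5.02% of 6158 genes passed, 2.74% lower and 2.27% higher (140 higher and 169 lower; 167 higher and 127 lower with median-of-ratios scaling). It passed in edgeR (0.0355; 5.49% of genes passed), in DESeq2 (0.0228; 3.44%) and with any 1 tumor left out (0.00850 to 0.0473). It passed in cluster CD8 1 alone (-0.87, 0.0132), a part of the same cells with 2 GC tumors, of 18 and 21 cells. There 162 genes passed as higher and 233 as lower of 6190 tested. Tapbp is the gene meant in the next sentence too. It did not pass in cluster CD8 2 alone (-0.52, 0.235), or when GC tumors 1 and 4, with 7 and 9 CD8 T cells and Tapbp levels of 3.76 and 1.44, were added (-0.56, 0.309).

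The other 9 genes did not pass in CD8 T cells. Tap2 was at 1.55, 1.64, 1.61, 1.74 and 1.21 UMIs per 10000 in control and 1.42, 0.947 and 0.756 in GC tumors, which overlapped at GC tumor 2 (log2 change -0.57 ± 0.20, adjusted p = 0.129). Tap2 did pass in edgeR (0.0359), in DESeq2 (0.0284), in cluster CD8 1 alone (0.00283) and without GC tumor 2 (0.00737). The fit of cluster CD8 1 also lacks GC tumor 2, which had 6 cells of that cluster. H2-K1 was at 23.7 to 26.2 in control and at 18.9, 19.5 and 23.5 in GC tumors, so the groups did not overlap (15.2% of genes did not), and its log2 change was -0.25 ± 0.09 (adjusted p = 0.152). Psmb9 did not overlap either, at 1.06 to 1.28 against 0.463, 1.06 and 0.845 (-0.60 ± 0.22, adjusted p = 0.137), and its change ran from -0.31 without GC tumor 2 (0.235) to -0.83 without GC tumor 3 (0.0379). The remaining genes were nearer to level: Nlrc5 was at 3.22 ± 0.332 in control and 3.20 ± 0.381 in GC tumors, H2-D1 at 10.7 ± 0.672 and 10.8 ± 0.222, and Psmb8 at 2.03 ± 0.211 and 2.02 ± 0.452 (n = 5 and 3). H2-Q7, Tap1 and B2m had log2 changes of 0.04 ± 0.11, -0.14 ± 0.17 and -0.20 ± 0.10. The macrophage genes C1qa, C1qb, C1qc, Apoe, Lyz2 and Cd74 summed to 1.40 to 2.29 UMIs per 10000 in these CD8 T cells of control and to 0.192 to 0.407 of GC tumors, and the part of such RNA in the Tapbp result was not tested.

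In TAMs (5 control and 2 GC tumors), H2-D1 rose. The control tumors had 10.4, 10.4, 11.7, 11.2 and 10.4 UMIs per 10000, and GC tumors 2 and 3, with 17 and 16 TAMs, had 15.0 and 13.9. Both GC values lay above all control values. The log2 change was 0.42 ± 0.10 (SE; adjusted p = 0.0127), from 10.8 ± 0.588 to 14.5 ± 0.787 (SD, n = 5 and 2). H2-D1 was 1 of 10, where 21.2% of 5988 genes passed, 6.86% higher and 14.3% lower (411 higher and 859 lower; 565 higher and 616 lower with median-of-ratios scaling). The count of 1 of 10 is thus not above the share of all genes that passed. H2-D1 passed in edgeR (0.0114; 7.52% of genes passed), in DESeq2 (0.000880; 5.76%), with tumors of at least 5 cells (0.0400) and with any 1 control tumor left out (0.0199 to 0.0361). Without GC tumor 2 or 3 its log2 change was 0.36 or 0.47. In TAMs, neutrophils and monocytes such a fit has 1 GC tumor, which is assumed to vary like the control tumors. H2-K1, H2-D1, H2-Q4, H2-Q6, H2-Q7 and H2-Q10 summed into 1 value had a log2 change of 0.02 in TAMs (adjusted p = 0.916).

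H2-K1 in the same TAMs was at 17.2, 16.6, 18.5, 18.6 and 15.8 UMIs per 10000 in control and 14.3 and 14.2 in GC tumors, with a log2 change of -0.28 ± 0.10 (adjusted p = 0.0665; 0.0465 without control tumor 5). Tapbp was at 3.65, 4.07, 4.59, 3.75 and 3.40 in control and 3.27 and 2.54 in GC tumors (-0.41 ± 0.14, adjusted p = 0.0640). Its change moved with the GC tumor kept, at -0.59 without GC tumor 2 (0.0120) and -0.24 without GC tumor 3 (0.262). H2-K1, Tapbp, Tap1 and Tap2 did not pass but, like H2-D1, had groups that did not overlap, as did 36.5% of all genes tested in TAMs. Tap2 was at 1.04 ± 0.0723 and 1.23 ± 0.133 (adjusted p = 0.295), and Tap1 at 1.74 ± 0.0837 and 1.46 ± 0.0705 (adjusted p = 0.183). The values of B2m were 38.6 ± 2.85 and 34.9 ± 0.735, of Nlrc5 1.01 ± 0.0870 and 0.997 ± 0.123, of Psmb8 1.99 ± 0.271 and 2.43 ± 0.767, and of Psmb9 1.30 ± 0.113 and 1.28 ± 0.110. The neutrophil markers summed to 0.896 to 1.18 UMIs per 10000 in TAMs of control and 1.93 to 3.63 of GC tumors, and their part in these results was not tested.

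In neutrophils (5 control and 2 GC tumors, the latter with 19 and 14 cells), 0 of the 10 genes passed in limma, 0 in edgeR and 0 in DESeq2, and 5 of 10 had an unadjusted p under 0.05 in limma (beside 809 of the 4411 genes tested). Of 4411 genes 4.83% passed in limma, 2.74% lower and 2.09% higher, with 8.37% in edgeR and 2.77% in DESeq2. B2m was at 23.3, 26.2, 19.8, 22.5 and 14.2 UMIs per 10000 in control and 13.7 and 11.2 in GC tumors (log2 change -0.75 ± 0.22, adjusted p = 0.0554). It passed without control tumor 5, which had the lowest control value (0.0140). With tumors of at least 5 cells, which adds GC tumor 5 (B2m at 25.1), the log2 change of B2m was -0.41 (0.421). H2-D1 was at 12.5, 11.1, 10.9, 11.5 and 9.72 in control and 7.69 and 7.13 in GC tumors (-0.58 ± 0.21, adjusted p = 0.130). H2-K1 was at 6.34 to 9.42 and at 5.50 and 4.91 (-0.53 ± 0.24, adjusted p = 0.240). For these 3 genes and Psmb9 both GC values lay below all control values, and for Nlrc5 both lay above (0 to 0.849 against 1.78 and 0.909, adjusted p = 0.334), while 22.2% of all genes tested did not overlap. GC tumor 5, left out with 7 neutrophils, had an H2-K1 level of 15.0. Tapbp had 19 UMIs in GC tumor 2 and 0 in GC tumor 3, and Psmb9 3 and 0, so their fitted changes rest on few molecules (adjusted p = 0.105 and 0.104). Without GC tumor 2 both passed, on a GC tumor with 0 UMIs of either, and without GC tumor 3 neither did. The median over the 10 genes was -0.56, beside 0.03 over all genes tested. In CD8 T cells these medians were -0.17 and -0.09, and in TAMs -0.07 and -0.12.

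No further class had 2 GC tumors with 10 cells. Monocytes (clusters Monocytes 1 to 3) were therefore examined after the data had been seen, with tumors of at least 5 cells, which gave 5 control tumors (19 to 168 cells) and GC tumors 2 and 3 (8 and 10 cells). Here 5 of the 10 genes fell: B2m, Tap1, Tapbp, Nlrc5 and H2-K1. Of 5765 genes 15.4% passed, 11.4% lower and 3.95% higher (228 higher and 659 lower; 283 higher and 488 lower with median-of-ratios scaling). The groups did not overlap for 8 of the 10 genes, beside 35.3% of all genes tested. The median log2 change was -0.61 over the 10 genes and -0.19 over all genes tested.

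B2m in monocytes was at 38.6, 35.8, 36.7, 37.2 and 30.3 UMIs per 10000 in control and at 19.7 and 20.6 in GC tumors, a log2 change of -0.82 ± 0.14 (adjusted p = 0.00591). Tap1 was at 2.70, 1.64, 2.22, 1.69 and 1.38 in control and at 0.476 and 0.634 in GC tumors, from 6 and 10 UMIs (-1.60 ± 0.27, adjusted p = 0.00541). Both GC tumors lay well below all 5 control tumors for B2m and Tap1. Tapbp was at 4.67, 3.54, 4.11, 3.64 and 3.49 in control and 1.69 and 1.60 in GC tumors (-1.18 ± 0.18, adjusted p = 0.00360). Nlrc5 was at 1.97, 1.55, 2.15, 1.45 and 1.54 in control and 0.659 and 0.497 in GC tumors, from 8 and 9 UMIs (-1.43 ± 0.22, adjusted p = 0.00422). H2-K1 was at 15.2, 11.5, 13.7, 14.5 and 11.0 in control and 8.14 and 8.27 in GC tumors (-0.67 ± 0.17, adjusted p = 0.0307). These 3 genes showed the same separation of the groups.

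The monocyte calls of B2m, Tap1, Tapbp and Nlrc5 held in edgeR (0.0471, 0.0428, 0.0243 and 0.0372; 4.33% of genes passed) and with any 1 control tumor left out. They also passed with either GC tumor left out, which leaves 1 GC tumor of 10 or 8 cells. In DESeq2, where 4.67% of genes passed, their adjusted p was 0.00654, 0.0197, 0.00669 and 0.0222. The H2-K1 call did not hold in edgeR (0.213), or without GC tumor 2 or 3 or control tumor 1, 3 or 4 (up to 0.0805). In cluster Monocytes 1 alone (4 control and 2 GC tumors; 14.7% of genes passed) the same 5 genes passed. Its GC tumors held 7 of the 8 and 9 of the 10 monocytes above, so this is no separate support. H2-D1 was at 10.6 ± 0.779 and 9.28 ± 0.0121, H2-Q7 at 1.51 ± 0.221 and 1.08 ± 0.0945 and Psmb9 at 1.31 ± 0.240 and 0.852 ± 0.0183, and these did not pass. Psmb8 (0.11 ± 0.25) and Tap2 (-0.29 ± 0.29) did not pass either. The monocyte markers summed to 40.1 to 51.8 UMIs per 10000 in control and 26.1 to 43.8 in GC tumors, and the TAM markers to 13.6 to 26.4 and 24.1 to 25.8. The part of such shifts in these results was not tested.

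**Figure D3:**
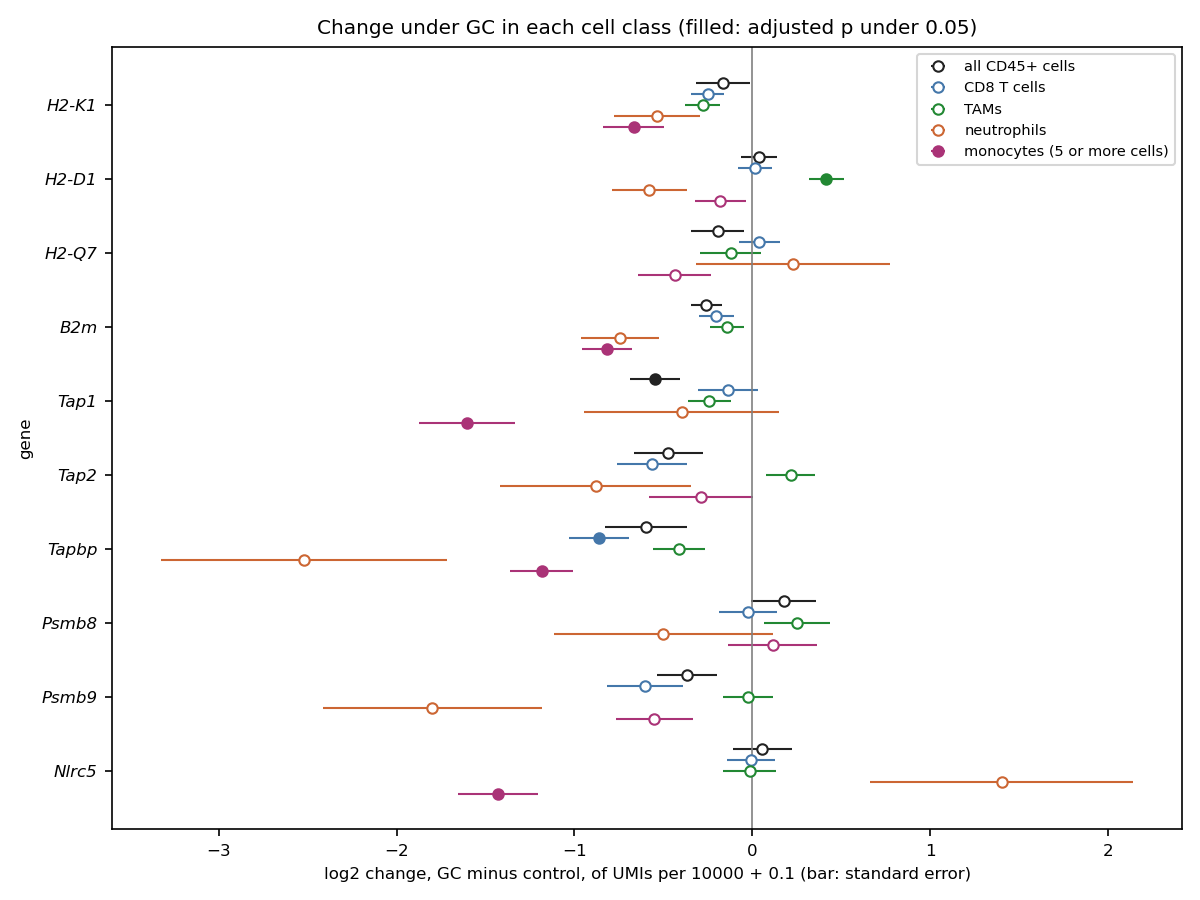
Log2 change (GC minus control; bar, standard error) of each gene in 5 cell classes, filled where the adjusted p is under 0.05. In monocytes B2m, Tap1, Tapbp, Nlrc5 and H2-K1 are filled and lie between -0.67 and -1.60, while in TAMs the filled point is H2-D1 at 0.42.

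Whether the GC change differed between classes was tested directly, with tumor as a block, in 4 pairs of classes. The change of H2-D1 was higher in TAMs than in neutrophils by 1.00 ± 0.19 on the log2 scale (adjusted p = 0.0104), where 2.8% of 3886 genes passed, 1.78% as higher. It was the only one of the 10 that passed there, and it held with any 1 control tumor left out (0.0183 to 0.0324). With 1 GC tumor kept, its difference was 0.99 without GC tumor 2 and 1.00 without GC tumor 3. Between TAMs and CD8 T cells (5.15% of genes passed in limma) and between neutrophils and CD8 T cells (2.58%), 0 of the 10 passed, and in each pair 2 of 10 had an unadjusted p under 0.05 (beside 1040 of 4931 and 616 of 3600 genes tested). The lowest adjusted p was 0.0778 and 0.0974, both for H2-D1.

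Between TAMs and monocytes, a pair added after the data had been seen, 4 of the 10 genes passed, where 6.11% of 5452 genes passed, 4.15% as higher. They were Nlrc5 (1.41 ± 0.25, adjusted p = 0.00657), Tap1 (1.36 ± 0.29, 0.0149), B2m (0.67 ± 0.16, 0.0211) and H2-D1 (0.60 ± 0.15, 0.0337), each with the higher change in TAMs. Nlrc5 held with any 1 control tumor left out (0.0120 to 0.0328), and with 1 GC tumor kept its difference was 1.70 without GC tumor 2 and 1.13 without GC tumor 3. Tap1 did not hold without control tumor 3 (0.0557), B2m without control tumor 1, 2, 3 or 4 (up to 0.0688), and H2-D1 without those or GC tumor 2 (up to 0.0919). Tapbp missed the threshold, at 0.77 ± 0.22 with an adjusted p of 0.05004.

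Of 38 other genes of the class I pathway list, 30 could be tested over all CD45+ cells, and 5 fell and 0 rose, beside 3.82% of all genes that passed as lower and 2.33% as higher. These were the inducible proteasome subunit Psmb10 (0.791 ± 0.0625 to 0.425 ± 0.0634 UMIs per 10000; -0.77 ± 0.15, adjusted p = 0.0126), the PA28 proteasome activators Psme1 (-0.54 ± 0.14) and Psme2 (-0.69 ± 0.17) and the chaperones Calr (-0.50 ± 0.13) and Canx (-0.75 ± 0.18). The constitutive proteasome subunits that the inducible ones replace, Psmb5, Psmb6 and Psmb7, had log2 changes of 0.07, -0.30 and -0.15 and did not pass. Irf1, an interferon-induced regulator, was at -0.31 ± 0.18 (adjusted p = 0.343). The median over the tested pathway genes was -0.28, beside -0.11 over all genes tested.

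In CD8 T cells 2 of 29 pathway genes fell and 0 rose, beside 2.74% of all genes that passed as lower. They were Psmb10 (0.642 ± 0.0818 to 0.243 ± 0.0839; -1.14 ± 0.21, adjusted p = 0.0105) and the chaperone Hspa5 (3.71 ± 0.272 to 2.41 ± 0.443; -0.61 ± 0.14, adjusted p = 0.0300). In TAMs 5 of 30 fell and 0 rose, a share near the 14.3% of all genes that passed as lower. These were the trimming peptidase Erap1 (-0.71 ± 0.18), the peptidase Nrd1 (-0.50 ± 0.14), Canx (-0.67 ± 0.16), the class Ib heavy chain H2-T22 (-0.71 ± 0.21) and the promoter factor Nfyc (-0.70 ± 0.19). In neutrophils, where 2.74% of all genes passed as lower, 1 of 24 fell, the oxidoreductase Pdia3 of the peptide-loading complex, from 0.688 ± 0.281 to 0.0706 ± 0.0999 (-2.28 ± 0.58, adjusted p = 0.0242). Its GC mean lies below the 0.1 added to each level before the log, so the size of this change depends on that constant. In monocytes 6 of 32 fell and 0 rose, beside 11.4% of all genes that passed as lower. These were Irf1 (-1.71 ± 0.32), the class Ib chains H2-T22 (-1.76 ± 0.24) and H2-M3 (-1.21 ± 0.34), the promoter factors Nfyc (-1.14 ± 0.28) and Creb1 (-0.96 ± 0.21), and the interferon-γ receptor subunit Ifngr2 (-0.88 ± 0.26).

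Irf1 did not pass in CD8 T cells, TAMs or neutrophils (log2 changes of -0.21, 0.24 and -0.28). Psmb5, Psmb6 and Psmb7 passed in none of the classes where they were tested.

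**Figure D4:**
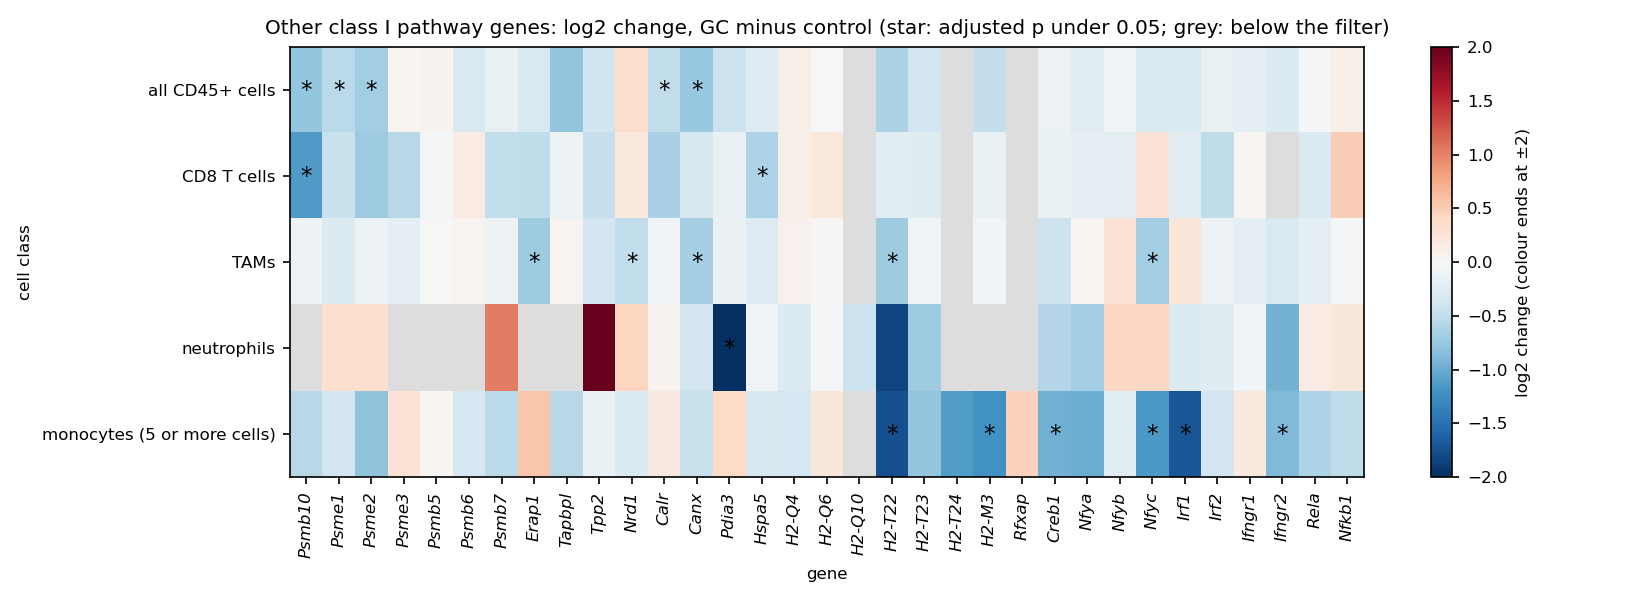
Log2 change (color, GC minus control) of the other class I pathway genes (columns) in 5 cell classes (rows), with a star where the adjusted p is under 0.05 and grey where a gene was below the filter. Every star is on a lower value, and Psmb10 is starred over all cells and in CD8 T cells, at -0.77 and -1.14.

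Of 5 genes of MHC class II, which presents peptides to CD4 T cells (Cd74, H2-Aa, H2-Ab1, H2-Eb1 and Ciita, chosen with results known), 4 fell in TAMs and 5 in monocytes, where 14.3% and 11.4% of all genes passed as lower. Class II genes also fell elsewhere: 3 of 5 over all cells, 4 of 4 tested in CD8 T cells and 3 of 4 tested in neutrophils. There 3.82%, 2.74% and 2.74% of all genes passed as lower. Their median log2 change was -2.25 in CD8 T cells and -2.57 in neutrophils, beside -0.77 in TAMs and -1.76 in monocytes. Cd74 was low in CD8 T cells, at 0.795 to 1.21 in control and 0 to 0.237 in GC tumors. The part of RNA from other cells in these falls was not tested. Cd74, the class II invariant chain, fell in TAMs from 78.2 ± 4.82 to 49.2 ± 14.2 UMIs per 10000 (-0.70 ± 0.14, adjusted p = 0.00566) and in monocytes from 28.5 ± 5.48 to 12.7 ± 0.608 (-1.13 ± 0.21, adjusted p = 0.00806), and Ciita, the class II counterpart of Nlrc5, fell in TAMs (-1.02 ± 0.18) and monocytes (-1.55 ± 0.29).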

How the data were processed

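Live CD45+ cells were sorted from 5 control and 5 GC tumors, each marked with a hashtag, and run with the 10x Genomics 3′ kit v3.1 in 1 channel per group. The authors aligned reads with Cell Ranger 7.1.0 (mm10, introns included), assigned cells to tumors by hashtag in Seurat 5.0.3 under R 4.3.1, kept singlets, removed outlier cells and named 16 clusters after integration. No doublet caller was run here. The deposited expression values are the natural log of 1 plus UMIs per 10000, made by the authors with Seurat's normalization. The deposited cell table holds each cell's UMI count, percent of mitochondrial UMIs, hashtag and cluster, as the authors gave them. The values were turned back into whole UMIs, and 100% came out whole (tolerance 0.01), with totals that matched the deposited count in 4108 of 4108 cells. There were 0 columns of unmapped samples.

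Levels were averaged per tumor and tested with limma 3.58.1 (trend and robust variance) in R 4.3.3 on log2(level + 0.1), Benjamini-Hochberg adjusted, using tumors with 10 or more cells and genes whose mean reached 0.2 per 10000. Differences between classes used limma with a correlation within tumors. edgeR 4.0.16 and DESeq2 1.42.0 on recovered counts summed per tumor, other filters, scalings, cell minimums and left-out tumors were alternatives. Scripts were tested on simulated data. The 10 genes and all lists were chosen with earlier results of these data known. Of the pathway list, genes that passed were named, at most the 6 largest per comparison, and Psmb5, Psmb6, Psmb7 and Irf1 always, and 1 gene of the list is not reported here; the glucocorticoid target and class II genes were named beside these. The pathway gene Nrdc is listed under its older symbol Nrd1. Tumors gave 2735708 to 9869474 UMIs in control and 139195 to 1235264 in GC, which sets the precision of each level. Every p-value measures the spread between tumors of 1 channel against 1 channel. Whether each hashtag was 1 mouse was not given in the sources used here.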

Additional observations from a re-analysis of the deposited data

Results flagged for a closer look

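In CD8 T cells of control tumors, H2-K1 was at 26.189 UMIs per 10000 in control tumor 3, where the next highest tumor had 24.4 and the lowest 23.7. The gap was 0.729 of the whole range, past the limit for 5 samples. It was 1 of 60 groups of tumors examined, and about 1 in 20 is found by chance.

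The GC change of H2-D1 differed between TAMs and neutrophils by 0.995764 on the log2 scale, higher in TAMs, in a direct test of the difference. In the same kind of test between TAMs and monocytes, a pair added after the data had been seen, the GC change was higher in TAMs by 0.67486 for B2m, 1.41381 for Nlrc5, 1.36129 for Tap1 and 0.596637 for H2-D1. The monocytes came from 8 and 10 cells in the GC tumors.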

How the results depend on the processing

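No change of the 10 genes that passed as reported reversed its direction under any alternative run, but several calls came and went. Without the filter, with the mean of log values, with median-of-ratios scaling and in edgeR 0 of the 10 genes passed over all cells, 2 with the ratio of summed UMIs, 3 in DESeq2 or without neutrophils and eosinophils, and 4 with tumors of at least 20 cells. Among CD8 T cells 2 passed in edgeR, in DESeq2, with at least 20 cells and in cluster CD8 1 alone, and 0 with at least 5 cells and in cluster CD8 2 alone. The fits with at least 20 cells are the same as those without GC tumor 1 over all cells and without GC tumor 2 in CD8 T cells. In neutrophils 2 passed without the filter or with the mean of log values, and 1 with a filter of 1 per 10000 or median-of-ratios scaling. Of all genes, 643 passed over all cells in edgeR, 1368 in DESeq2 and 607 with at least 20 cells (398 as reported). For CD8 T cells 195 passed with at least 5 cells, 604 with at least 20 and 129 in cluster CD8 2 alone (309 as reported). In TAMs 667 passed with a filter of 1 per 10000, 671 in edgeR and 685 in DESeq2 (1270 as reported), in neutrophils 327 without the filter and 390 with the mean of log values (213), and in monocytes 358 in edgeR, 513 in DESeq2 and 1379 with at least 10 cells (887). The alternatives with at least 20 cells left no test in TAMs and neutrophils. The cause of these shifts was not tested.

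With 1 tumor left out, the count of genes that passed ran from 101 to 666 (all cells), 135 to 604 (CD8 T cells), 867 to 2117 (TAMs), 105 to 241 (neutrophils), 488 to 1502 (monocytes), 102 to 818 (TAMs minus CD8 T cells), 46 to 281 (neutrophils minus CD8 T cells), 51 to 221 (TAMs minus neutrophils) and 96 to 1446 (TAMs minus monocytes). Of the 10 genes it ran from 0 to 4 (all cells), 1 to 2 (CD8 T cells), 1 to 2 (TAMs), 0 to 2 (neutrophils), 4 to 5 (monocytes), 0 to 2 (TAMs minus CD8 T cells), 0 to 3 (neutrophils minus CD8 T cells), 1 to 3 (TAMs minus neutrophils) and 1 to 5 (TAMs minus monocytes). Changes that did not pass as reported and turned sign with 1 tumor left out had these ranges on the log2 scale. For all cells, H2-D1 from -0.001 to 0.10 and Nlrc5 from -0.0517 to 0.14. For CD8 T cells, H2-D1 from -0.0042 to 0.0511, H2-Q7 from -0.0735 to 0.12, Tap1 from -0.22 to 0.0005, Psmb8 from -0.19 to 0.11 and Nlrc5 from -0.0697 to 0.0905. For TAMs, Psmb8 from -0.0619 to 0.57, Psmb9 from -0.11 to 0.0571 and Nlrc5 from -0.13 to 0.10. For neutrophils, Psmb8 from -1.79 to 0.79. For monocytes, Tap2 from -0.70 to 0.12 and Psmb8 from -0.24 to 0.46. For TAMs minus CD8 T cells, H2-K1 from -0.0846 to 0.0691, B2m from -0.0156 to 0.10, Tap1 from -0.24 to 0.0188 and Nlrc5 from -0.22 to 0.15. For neutrophils minus CD8 T cells, H2-Q7 from -0.0192 to 0.45, Tap2 from -0.70 to 0.25, Tapbp from -3.79 to 0.31 and Psmb8 from -1.60 to 0.67. For TAMs minus neutrophils, Tap1 from -0.10 to 0.29 and Psmb8 from -0.22 to 1.72. For TAMs minus monocytes, Tap2 from -0.0118 to 1.02 and Psmb8 from -0.53 to 0.80. Of these, Psmb8 in TAMs passed without GC tumor 3 (adjusted p = 0.0214), and without GC tumor 2 Psmb8 and Tapbp in neutrophils minus CD8 T cells (0.0408 and 0.000894) and Tap2 in TAMs minus monocytes (0.0410) passed, each with 1 GC tumor left in TAMs, neutrophils or monocytes.

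Other choices turned the sign of changes that did not pass as reported. In all cells H2-D1 was at -0.001 with at least 20 cells and H2-Q7 was at 0.14 with the ratio of summed UMIs, 0.19 in edgeR, 0.19 in DESeq2 and 0.0254 without neutrophils and eosinophils. In CD8 T cells H2-D1 was at -0.0029 with the ratio of summed UMIs and -0.0001 in cluster CD8 1 alone, Tap1 was at 0.0414 in cluster CD8 1 alone, Psmb8 was at 0.10 with the ratio of summed UMIs, 0.0216 with the mean of log values, 0.0175 with median-of-ratios scaling, 0.0587 in edgeR, 0.0454 in DESeq2 and 0.0014 in cluster CD8 1 alone and Nlrc5 was at 0.0345 with median-of-ratios scaling, 0.009 in edgeR, 0.0677 in cluster CD8 2 alone and 0.0105 with cluster CD8 4. In TAMs H2-Q7 was at 0.026 with the ratio of summed UMIs, 0.12 in edgeR, 0.12 in DESeq2 and 0.005 with at least 5 cells, Psmb9 was at 0.0107 with the ratio of summed UMIs, 0.0348 with the mean of log values, 0.0763 with median-of-ratios scaling, 0.11 in edgeR, 0.10 in DESeq2 and 0.18 with at least 5 cells and Nlrc5 was at 0.0828 with median-of-ratios scaling, 0.0871 in edgeR, 0.085 in DESeq2 and 0.14 with at least 5 cells. In neutrophils Psmb8 was at 0.0156 with the mean of log values and 0.17 in DESeq2. In monocytes Psmb8 was at -0.0207 in cluster Monocytes 1 alone.

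The median change of all genes over all cells was -0.11 as reported, -0.03 with median-of-ratios scaling, and 0.00 in edgeR and 0.04 in DESeq2, which also tested more genes. The clusters with the highest level of each gene were the same with at least 5 cells and with pooled control cells, and with pooled cells the lowest was CD8 1 for Tapbp and eosinophils for Nlrc5. No paired analysis was possible because the tumors of the groups share only a hashtag number and come from separate channels. Depth limits the rare classes most: the GC tumors tested had 14 or 19 neutrophils, 16 or 17 TAMs and 8 or 10 monocytes. Near 1 UMI per 10000, Nlrc5 rested on 23 and 34 UMIs in TAMs of GC tumors 2 and 3. Psmb9 rested on 11 and 13 in their monocytes, and Nlrc5 on 6 in neutrophils of GC tumor 3. A difference that did not pass in these classes was not shown to be absent.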
